A study of Mus musculus with 4 samples.

Results

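Neat1 (ENSMUSG00000092274) and Malat1 (ENSMUSG00000092341) are the 2 genes described here, of 33696 genes in the files. Neat1 was chosen from the data, because earlier results of these libraries named it among the genes lower in granulocyte-monocyte progenitors after vitamin B12. Malat1 was chosen with it as a second long nuclear RNA whose level is often read together with sequencing depth and with the mitochondrial share of a cell. Their unique molecular identifiers (UMIs, each standing for 1 captured RNA molecule) were summed over cells that had 500 genes and 1000 UMIs or more, and of whose UMIs no more than 10% came from mitochondrially encoded genes (mt- genes). The 31209 cells kept, of 34670 barcodes, held 194564 Neat1 UMIs and 3541637 Malat1 UMIs.

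The cells were CD45.2+ bone marrow cells carrying 1 intact Tet2 allele (Tet2+/-), taken from lethally irradiated mice that had received them mixed in equal parts with CD45.1+ Tet2+/+ marrow. After 1 month of engraftment the hosts were treated for 7 months: the Control group had PBS injections and 100 mM NaCl in the drinking water, the Butyrate group PBS and 100 mM NaButyrate, the B12 group 0.29 µg B12 per injection and NaCl, and the B12+Butyrate group B12 and NaButyrate. All 4 groups therefore shared the Tet2+/- donor cells, the irradiation and the transplant, and no group was Tet2+/+. Each group gave 1 droplet library (10X Genomics 3' chemistry) of live sorted cells from 3 mice, pooled after viable freezing, with Kit+ and Kit- cells put together in equal numbers. The mice of a library cannot be separated, so no test between treatments was possible. Values below are single-library values, the intervals given are 95% counting intervals (exact Poisson for levels), and these leave out the variation between cells and between mice.

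Neat1 is the architectural RNA of paraspeckles, nuclear bodies that form when RNA-binding proteins such as Sfpq and Nono assemble on its long isoform. Malat1 is among the most abundant long noncoding RNAs of mammalian nuclei and gathers in nuclear speckles, which store splicing factors. Both are made from neighbouring genes, both are held in the nucleus, and RNA kept in the nucleus is lost less readily than cytoplasmic RNA when a cell membrane leaks.

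In the GENCODE M21 annotation of mouse build GRCm38 both genes lie on the minus strand of chromosome 19, with Frmd8 as the nearest protein-coding gene on the Neat1 side. The libraries were counted on GRCm39, so no coordinates are given. The 3-prime ends are shown because this chemistry primes on runs of A, and they are where the 2 RNAs resemble each other. Each line gives a transcript read 5′ to 3′ in transcript coordinates: bases 6592 to 6691 of the 6983-base Malat1 transcript, and the last 100 bases of the 20771-base long isoform of Neat1. Capitals mark the 3 stretches of at least 11 bases that both windows hold.
Malat1: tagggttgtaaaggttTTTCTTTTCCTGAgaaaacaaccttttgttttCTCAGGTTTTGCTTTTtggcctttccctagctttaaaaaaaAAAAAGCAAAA
Neat1 long isoform: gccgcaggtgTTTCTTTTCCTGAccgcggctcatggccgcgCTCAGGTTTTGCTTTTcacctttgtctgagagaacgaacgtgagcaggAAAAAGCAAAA
Neat1 short isoform: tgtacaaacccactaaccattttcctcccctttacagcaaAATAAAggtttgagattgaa
The shared stretches run in the same order in both transcripts. On the transcript strand, TTTCTTTTCCTGA (13 bases) was found in transcripts of 19 other genes, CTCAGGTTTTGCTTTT (16 bases) in none of the other genes among 55450, and AAAAAGCAAAA (11 bases) in transcripts of 374. The U-rich and A-rich stretches at the ends of these RNAs are known to fold into a triple helix in place of a poly(A) tail. The Malat1 transcript carried 1 run of at least 12 A, at bases 6674 to 6685, inside that end. A run of that length was present in 19.7% of the 7040 annotated transcripts of at least 5000 bases. The long isoform of Neat1 had none, its longest run being 7 A. The third line is the last 60 bases of the 3004-base short isoform of Neat1, which is polyadenylated, and its capitals mark AATAAA, present in the last 60 bases of 27.1% of the 141767 transcripts. The counts do not separate the Neat1 isoforms.

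The kept cells numbered 6793 to 8752 a library, with median depths of 11583.5 to 12544.5 UMIs, and between 13 and 30 cell barcodes were shared by any pair of libraries. Barcodes above the mt- limit made up 5.34% (B12+Butyrate) to 13.9% (Butyrate). Cells were put into 12 classes by marker UMIs, 28997 in all, with 1677 cells passing the gates of several lineages and 535 passing none. The gates are ranges on a marker sum, not proven types. Between 0.341% (noncycling granule neutrophil) and 17.9% (HSC/MPP) of a class lay close to its limit. All markers of each gate were detected in its class. In B lineage-gated cells the median of conventional dendritic cell markers, which include the MHC class II genes that B cells also use, was 136 UMIs per 10000, and in mature neutrophil-gated cells that of granule markers was 96.5.

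Neat1 was highest in mature neutrophil-gated cells, with a level of 758 CPM (UMIs of the gene per 1000000 UMIs of the class) in Control, 948 in Butyrate, 842 in B12 and 900 in B12+Butyrate. All 4 values lay above every other class in every library. By mean UMIs per cell, however, this class took place 6 of 12, at 4.95, and GMP-gated cells came first at 8.90. Monocyte-gated cells followed with 538, 667, 470 and 567 CPM in the same order of libraries, and noncycling granule neutrophil-gated cells with 534, 539, 473 and 560. Basophil/mast-gated cells, only 19 to 41 a library, held 361 to 581 CPM. Cycling neutrophil-gated cells held 409, 435, 311 and 418 CPM. From monocyte-gated down to T-gated cells, each class overlapped the next in the order of mean levels when the range over libraries was taken as the spread.

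The lymphoid classes were at the bottom for Neat1. T-gated cells held 134 CPM in Control, 176 in Butyrate, 171 in B12 and 178 in B12+Butyrate. B lineage-gated cells held 158, 196, 195 and 205 CPM in the same order. Per cell, that was a mean of 0.696 to 1.06 UMIs in T-gated cells, against 4.34 to 5.48 in mature neutrophil-gated cells, whose median depth was similar (4675 to 5529 UMIs, against 4509 to 5247.5). At a common 2000 UMIs, 74.3 to 78.9% of mature neutrophil-gated cells and 17.5 to 31.2% of T-gated cells had at least 1 Neat1 UMI, against 93.2% or more and 39.7 to 51.5% at their own depth. S100a8, an abundant neutrophil gene, stood in B lineage- and T-gated cells at 0.328 to 0.801% of its all-cell level. Droplets that also passed a neutrophil gate had been left out of these classes, which limits that share beforehand. The same share of the all-cell Neat1 level would be 1.53 to 3.59 CPM, if both RNAs were free in the same proportion. The part of free RNA in the lymphoid Neat1 values was not tested.

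Malat1 had another order of classes. It was highest in the lymphoid classes: B lineage-gated cells held 21922 CPM in Control, 20392 in Butyrate, 24488 in B12 and 22032 in B12+Butyrate, and T-gated cells 21176, 21672, 20927 and 20864, where it had more UMIs than any other gene. GMP-gated cells, progenitors defined by primary granule protease genes, had the lowest level with 5237, 6183, 4816 and 5056 CPM. Cycling neutrophil-gated cells stayed within 6317 to 6498 CPM over the 4 libraries. Mature neutrophil-gated cells, the first class for Neat1, came after B lineage-, T- and NK-gated cells for Malat1, with 12365 to 15175 CPM, and HSC/MPP-gated cells took place 8 of 12 for both RNAs. Of the 31209 kept cells, 20 held no Malat1 UMI.

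**Figure D1:**
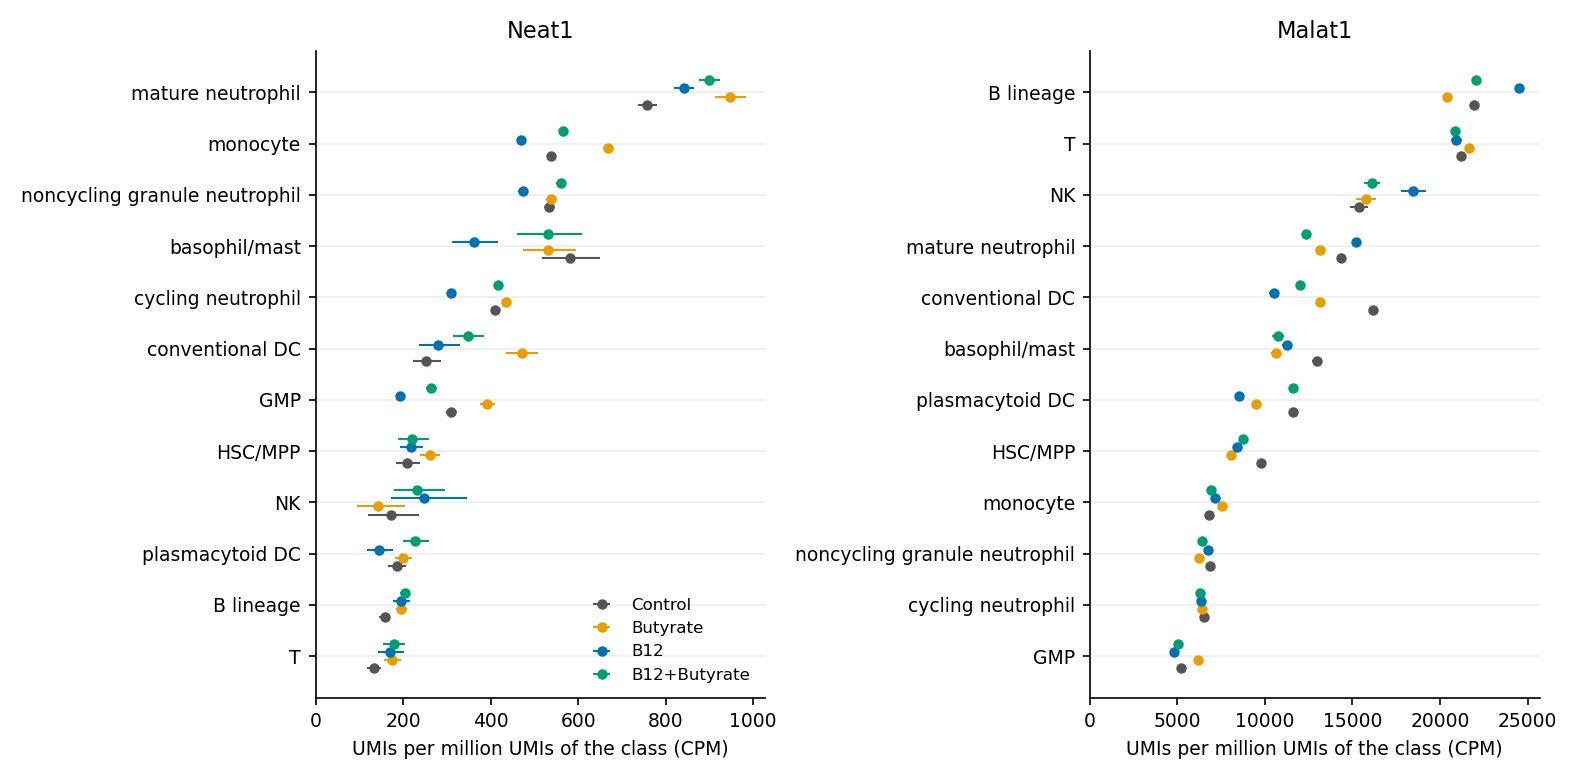
Neat1 (left) and Malat1 (right) level in CPM on linear axes from 0, by gated class (rows, ordered by mean level) and library (colour), with 95% Poisson counting intervals. Mature neutrophil-gated cells stand apart at 758 to 948 CPM of Neat1, while B lineage- and T-gated cells lead for Malat1 and close the order for Neat1.

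The spread of Malat1 over classes depended on the scale. Mean CPM differed 4.17-fold between the highest and lowest class, but mean UMIs per cell differed only 2.42-fold, from 78.7 in mature neutrophil-gated to 190.7 in basophil/mast-gated cells, while median depth varied 6.43-fold. For Neat1 the spread was larger per cell (10.1-fold, from 0.880 UMIs in T-gated to 8.90 in GMP-gated cells) than by CPM (5.24-fold). Over the 31 library-by-class sums with at least 100 cells, Malat1 followed median depth with r = -0.91 (log2 scale) and Neat1 with r = 0.13. The correlation of the 2 RNAs with each other was -0.41, and that of Neat1 with the mt- share was -0.73, against 0.21 for Malat1. These points share libraries and classes, and the coefficients describe them only.

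The ratio of the 2 RNAs does not depend on the other RNAs of a cell. It was 8.03 Neat1 UMIs per 100 Malat1 UMIs in noncycling granule neutrophil-gated cells (mean of 4 libraries, range 6.99 to 8.76), 7.88 in monocyte-gated cells (6.58 to 8.83) and 6.33 in mature neutrophil-gated cells (5.29 to 7.28). It was 0.853 in B lineage-gated (0.720 to 0.963) and 0.778 in T-gated cells (0.633 to 0.855), 10.3-fold below the top. HSC/MPP-gated cells, the stem-like class, stood between at 2.63, and GMP-gated cells at 5.38. Of the 7 main classes, those with at least 100 cells in every library, the 5 myeloid ones did not overlap with B lineage- and T-gated cells in any library. Transcript length and priming differ between the 2 RNAs, so the ratio compares classes and is not a molar ratio.

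**Figure D2:**
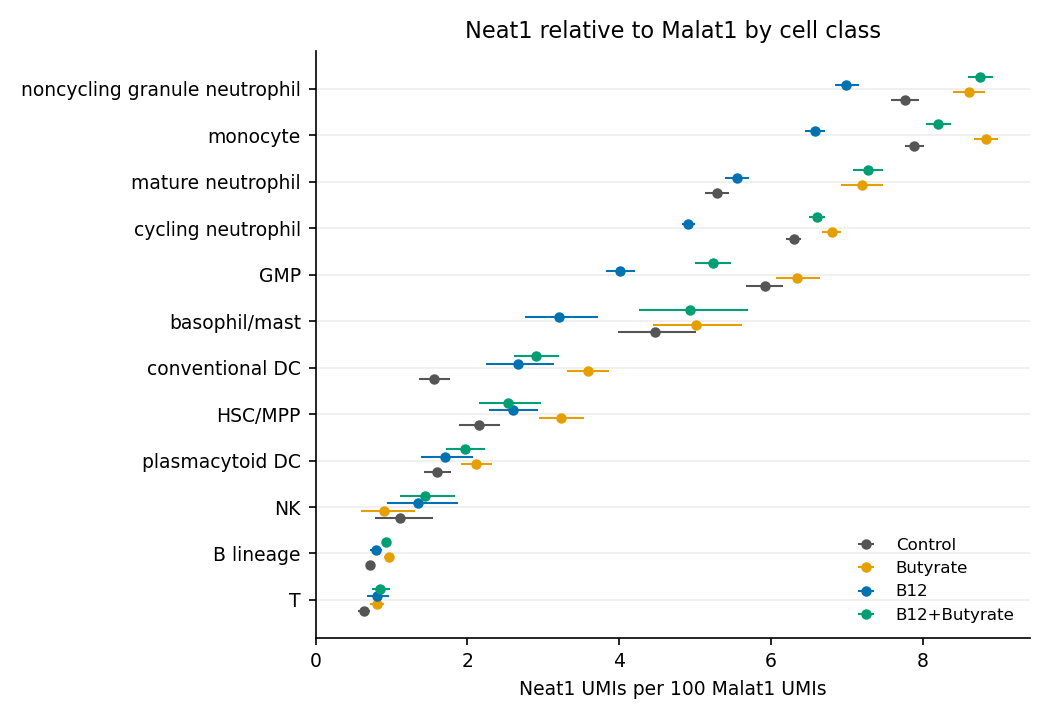
Neat1 UMIs per 100 Malat1 UMIs (linear axis from 0) by gated class and library, with 95% counting intervals. Class means cover a 10.3-fold range from T-gated to noncycling granule neutrophil-gated cells. The 4 libraries of a class spread less, but not evenly, as from 1.56 to 3.59 in conventional dendritic cell-gated cells.

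Genes whose level followed each RNA over the same 31 sums were ranked among 3420 genes. For Neat1 the 5 most alike were Nadk (r = 0.96), which makes NADP from NAD, the leukocyte gene Lst1 (0.94), Arpc2 (0.94), a subunit of the actin-branching complex, Rgs2 (0.93), a regulator of G protein signalling, and Gm34455 (0.93). Nadk stood at a median of 390 CPM in mature neutrophil-gated and 38.2 in B lineage-gated cells. For Malat1 they were Rc3h2 (0.97), an RNA-binding ubiquitin ligase, the long noncoding RNA Chaserr (0.96), Fbxo11 (0.96), an F-box protein of ubiquitin ligases, Ccm2 (0.96), a scaffold protein, and the transcription factor gene Nfat5 (0.96). Fbxo11 had a median of 337 CPM in B lineage-gated and 64.5 in GMP-gated cells. These are descriptions over points that share libraries.

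Most RNAs of the proteins that build paraspeckles were lowest where Neat1 CPM was highest. Of 16 listed members, 14 had their lowest median CPM in mature neutrophil-gated cells, the class with the highest Neat1 CPM, though not the most Neat1 UMIs per cell. Over 3660 genes with a mean of at least 50 CPM, 40.6% were lowest in mature neutrophil-gated cells, and so were 7 of 8 cytoplasmic or snoRNA-host RNAs. The order over the remaining classes was not compared, and no member peaked in T-gated cells, where Neat1 was lowest. Sfpq, a protein essential for paraspeckle assembly, went from 376 CPM in HSC/MPP-gated to 115 in mature neutrophil-gated cells, and Hnrnpa1 from 566 to 19.9. Among 15 nuclear speckle proteins 7 were lowest there, and among 9 other nuclear long RNAs 6, including Xist, which silences an X chromosome (median 167 CPM against 2742 in basophil/mast-gated cells). Of 9 immediate early and heat shock genes, 3 (Fos, Junb and Ier2) peaked in mature neutrophil-gated cells as Neat1 did, and as 11.8% of the 3660 genes did. Another 3 (Hspa1a, Hspa1b and Hsph1) were lowest there, while Jun peaked in basophil/mast-gated and Egr1 in B lineage-gated cells.

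In GMP-gated cells Neat1 read 310 CPM in Control (262 cells, 2389 UMIs), 393 in Butyrate (167 cells, 1976 UMIs), 193 in B12 (321 cells, 1806 UMIs) and 265 in B12+Butyrate (219 cells, 1974 UMIs). The B12 library was lowest and the Butyrate library highest. The B12 over Control log2 ratio of CPM + 10 was -0.65 (95% counting interval -0.74 to -0.56). That is the contrast Neat1 was chosen on, so nothing is read from it: 6 of 3600 genes, 0.167%, passed a 1.5-fold difference there, the others being S100a6, Ifitm1, Retnlg, Glis3 and Gm47283, all lower in B12. With every cell thinned to 2000 UMIs the ratio was -0.35, within 1.5-fold. The median GMP-gated cell held 7 Neat1 UMIs in Control, 9 in Butyrate, 4 in B12 and 6 in B12+Butyrate, and the 10% of cells with most Neat1 held 27.1 to 34.9% of it. Malat1 was ordered the same way at both ends, with 6183 CPM in Butyrate and 4816 in B12, but over a narrower range.

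The B12+Butyrate and Butyrate libraries, which the choice of Neat1 did not use, gave a second value for B12 in GMP-gated cells. Neat1 was lower with B12 there too, at -0.55 (-0.64 to -0.46), just inside the 1.5-fold limit of 0.58. In that class and contrast 0.662% of 3473 genes were lower by as much. The 8 mature neutrophil markers summed to 196 CPM in Control, 218 in Butyrate, 159 in B12 and 180 in B12+Butyrate, lower with B12 in both contrasts. The 6 granule markers summed to 750.0, 1313, 795 and 941 CPM, so they were lowest in Control and went the other way from Neat1 in B12 over Control. No marker of either list was at 0 in any library. The median mt- share was 2.79, 3.31, 2.69 and 2.90% in the same order of libraries, also lower with B12 in both contrasts. The part of such cells or their RNA, or of the mt- share, in the result was not tested. GMP markers themselves summed to 33886 to 35053 CPM.

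Outside GMP-gated cells the B12 contrasts had no common direction. Against Control, Neat1 with B12 was lower in cycling neutrophil-gated (-0.39), noncycling granule neutrophil-gated (-0.17) and monocyte-gated cells (-0.19), and higher in mature neutrophil-gated (0.15), B lineage-gated (0.29) and T-gated cells (0.33). Against Butyrate, B12+Butyrate was lower in monocyte-gated cells (-0.23), with -0.06 in cycling neutrophil-gated, 0.06 in noncycling granule neutrophil-gated, -0.07 in mature neutrophil-gated, 0.06 in B lineage-gated and 0.02 in T-gated cells. Of the 7 main classes, GMP-, monocyte- and cycling neutrophil-gated cells were lower in both contrasts. Of all 7, 1 passed 1.5-fold for Neat1 in B12 over Control, against 2.0% of all gene-by-class values, and that one is the GMP value. None passed in B12+Butyrate over Butyrate, where the background was 0.852%.

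Butyrate went with more Neat1 in every main class. Butyrate over Control gave a median log2 ratio of 0.31 over the 7 classes, from 0.01 in noncycling granule neutrophil-gated to 0.37 in T-gated cells, with 0.33 in GMP-gated, 0.32 in mature neutrophil-gated and 0.31 in monocyte-gated cells. B12+Butyrate over B12, which uses the other 2 libraries, gave a median of 0.24, from 0.06 in T-gated to 0.43 in GMP-gated cells, with 0.42 in cycling neutrophil-gated and 0.27 in monocyte-gated cells. The counting interval lay above 0 in 6 of 7 classes in the first contrast and 5 of 7 in the second. The GMP-gated value of each contrast uses a library of the comparison Neat1 was chosen on. A B12 level chosen for being low raises the 0.43 by itself, so nothing is read from its size. No class reached 1.5-fold in either, where 1.13% and 1.53% of all gene-by-class values did. After thinning to 2000 UMIs 2 of the 14 values passed it, both in Butyrate over Control: GMP-gated cells at 0.71 and T-gated cells at 0.71.

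Other measures of the same cells moved with butyrate too. The median mt- share was higher in 14 of 14 class values, as in monocyte-gated cells (1.90% in Control and 2.30 in Butyrate, 1.86 in B12 and 2.10 in B12+Butyrate), and by little in mature neutrophil-gated cells (0.206 and 0.230%, 0.191 and 0.194%). Median depth was higher in 12 of 14. GMP markers, which mark an earlier stage than most of these classes, were lower in 13 of 14, and cycling markers in 9 of 14. In mature neutrophil-gated cells the GMP markers summed to 287 CPM in Control and 63.9 in Butyrate, and to 136 in B12 and 101 in B12+Butyrate, and the cycling markers to 113 and 48.2, and to 74.9 and 22.0. In monocyte-gated cells the GMP markers summed to 1123 and 825 CPM and to 1311 and 1082, and the cycling markers to 1135 and 1030 and to 1134 and 877. Neat1 was higher in 14 of 14 without mt- UMIs in the denominator, and also with the same mix of depths. The change of denominator moved no log2 ratio by more than about 0.01, so it cannot show what part the mt- share had. The part of the mt- share and of earlier or cycling cells in the Neat1 values was not tested.

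All 14 class values of Neat1 were above 0, a pattern that 7 of 1220 genes tested in every class of both contrasts shared (0.574%). The other 6 were Mapkapk2, Gpi1, Limd2, Rps29, Rpl37 and Dazap2. Leaving out GMP-gated cells, whose B12 and Control libraries the choice of Neat1 had used, it was 12 of 12, as for 8 of 1279 genes (0.625%). The smallest values were near 0. With each cell weighing the same, 12 of 14 were above 0, as after thinning to 2000 UMIs, and 13 of 14 without cells of very high UMIs. The lowest value was -0.12 with cells weighing the same and -0.13 after thinning, both in B lineage-gated cells of B12+Butyrate over B12. The 14 values come from 4 libraries, and classes of a library share its mice, sorting and processing, so they are not 14 replicates.

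**Figure D3:**
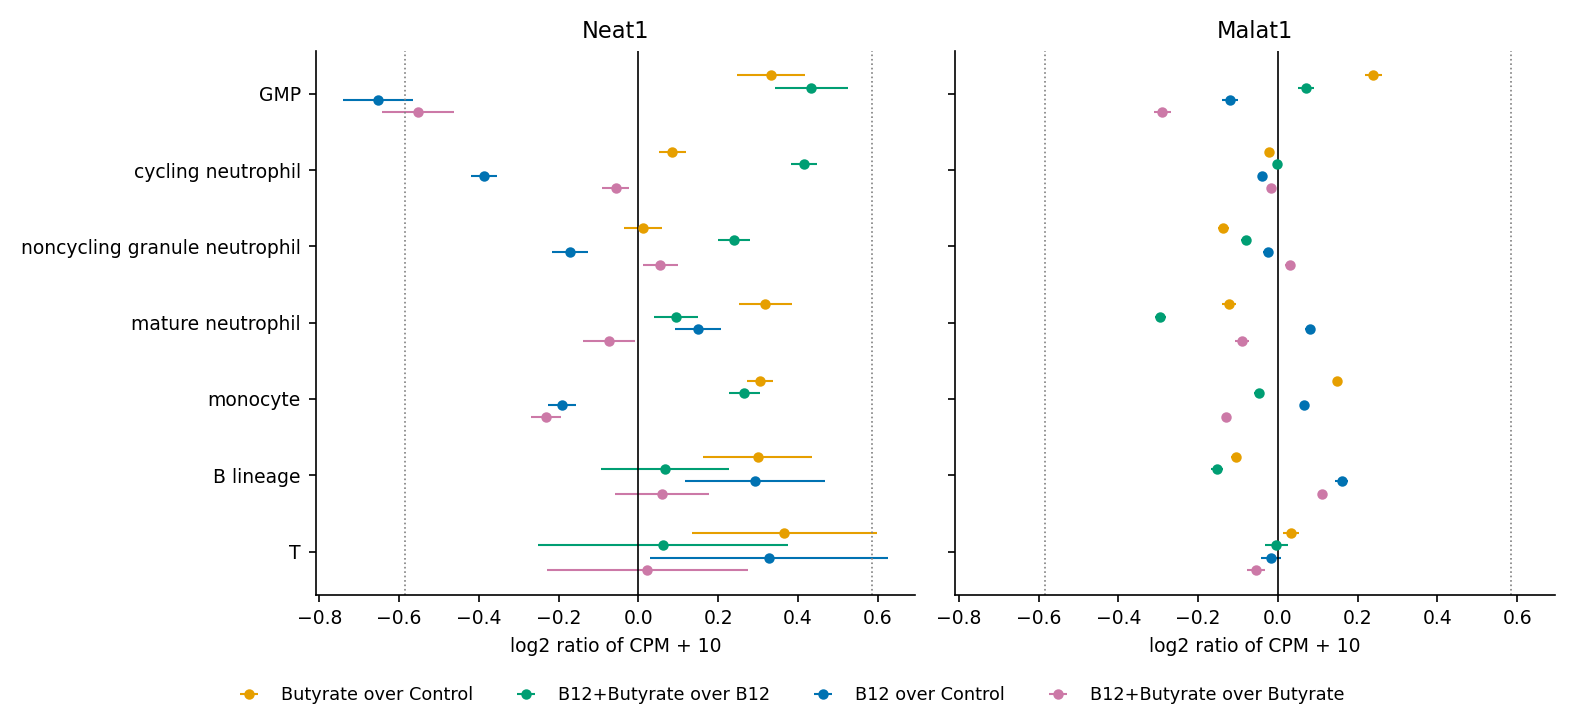
Log2 ratio of CPM + 10 for Neat1 (left) and Malat1 (right) in the 7 main classes, coloured by contrast, with 95% counting intervals; dotted lines mark 1.5-fold. For Neat1 all values of the 2 butyrate contrasts lie above 0, and the B12 over Control value of GMP-gated cells (-0.65) alone lies past a dotted line.

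Malat1 did not share that direction. In Butyrate over Control it was higher in 3 of 7 classes, with 0.24 in GMP-gated and 0.15 in monocyte-gated cells and -0.14 in noncycling granule neutrophil-gated cells. In B12+Butyrate over B12 it was higher in 1 of 7, and lowest in mature neutrophil-gated cells at -0.30 (15175 CPM in B12, 12365 in B12+Butyrate). No Malat1 value passed 1.5-fold in a main class in any of the 4 contrasts. The Neat1 to Malat1 ratio was higher with butyrate in 7 of 7 classes of each contrast, with a median log2 difference of 0.16 (0.10 to 0.45) in Butyrate over Control and 0.32 (0.07 to 0.43) in B12+Butyrate over B12. In monocyte-gated cells it went from 7.89 per 100 in Control to 8.83 in Butyrate, and from 6.58 in B12 to 8.21 in B12+Butyrate.

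The small classes, with under 100 cells in at least 1 library, varied more. In conventional dendritic cell-gated cells (45 to 100 a library) Neat1 was 252 CPM in Control, 471 in Butyrate, 280 in B12 and 348 in B12+Butyrate. In plasmacytoid dendritic cell-gated cells it was 185, 200, 145 and 228, and in HSC/MPP-gated cells 210, 261, 218 and 221. Basophil/mast-gated cells held 581, 532, 361 and 531 CPM, so they were lower in Butyrate than in Control. Of all 12 classes, Neat1 was higher in 10 and lower in 2 in Butyrate over Control, and higher in 11 and lower in 1 in B12+Butyrate over B12. NK-gated cells held 28 to 67 Neat1 UMIs in all, too few to order the libraries.

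Over all kept cells Neat1 read 448 CPM in Control, 485 in Butyrate, 381 in B12 and 467 in B12+Butyrate, and Malat1 8207, 8559, 7575 and 8014. The B12 library was lowest for both. The libraries also differed in their classes: B lineage- and T-gated cells, the classes with the highest Malat1 CPM, made up 13.5% of kept cells in Control, 18.8% in Butyrate, 7.80% in B12 and 15.2% in B12+Butyrate. With the same mix of classes in both libraries, the log2 ratio of Malat1 in B12 over Control went from -0.12 to -0.01, while that of Neat1 was -0.23 and -0.24. In a sum over cells, fewer cells of a class and less RNA per cell cannot be told apart.

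Monocyte-gated and mature neutrophil-gated cells of low depth held larger shares of both RNAs. In monocyte-gated Control cells Malat1 went from 27819 CPM at 1000 to 2000 UMIs (27 cells) to 11340 at 4000 to 8000 UMIs, 6906 at 8000 to 16000 UMIs and 5787 at 32000 UMIs or more (61 cells). Neat1 went from 1379 to 739, 537 and 483 CPM in the same bins. Per cell this was 42.6 and 229 Malat1 UMIs, and 2.11 and 19.1 Neat1 UMIs, in the first and last bin. From the lowest to the highest bin of monocyte-gated cells, over the 4 libraries, mean depth differed 12.8 to 25.9-fold, Malat1 CPM in the highest bin was 0.160 to 0.246 times that in the lowest, and Neat1 CPM 0.313 to 0.359 times.

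Between the end bins most classes went the same way, but the bins between did not always. Malat1 CPM was lower in the deepest bin than in the shallowest in 4 of 4 libraries of every main class but GMP (3 of 4), and Neat1 in 4 of 4 but for GMP and noncycling granule neutrophil (3 of 4 each). In cycling neutrophil-gated cells that fall lay in bins below 8000 UMIs of only 22 to 58 cells. From 8000 UMIs up, which hold most of them, both RNAs were lower at 8000 to 16000 UMIs than in the 2 deeper bins in every library. In Control, Malat1 was 5805, 6483 and 6794 CPM and Neat1 349, 413 and 430 CPM in those 3 bins (383, 1099 and 178 cells). Taking mt- UMIs out of the denominator left the ranges close to these, with 0.152 to 0.236 for Malat1 and 0.303 to 0.344 for Neat1 in monocyte-gated cells. In mature neutrophil-gated cells, where mt- UMIs were 0.191 to 0.230% of the total, Neat1 in the deepest bin was 0.254 to 0.456 times its level in the shallowest. B lineage-gated Control cells had 22818 CPM of Malat1 at 2000 to 4000 UMIs and 20200 at 8000 to 16000 UMIs, but these bins differed only 2.95-fold in mean depth. In this class Malat1 in the deepest bin was 0.885 times its level in the shallowest in Control and 0.826 times in B12+Butyrate (3.04-fold in depth). It was 0.449 times in B12 (7.03-fold in depth) and 0.323 times in Butyrate (13.9-fold).

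**Figure D4:**
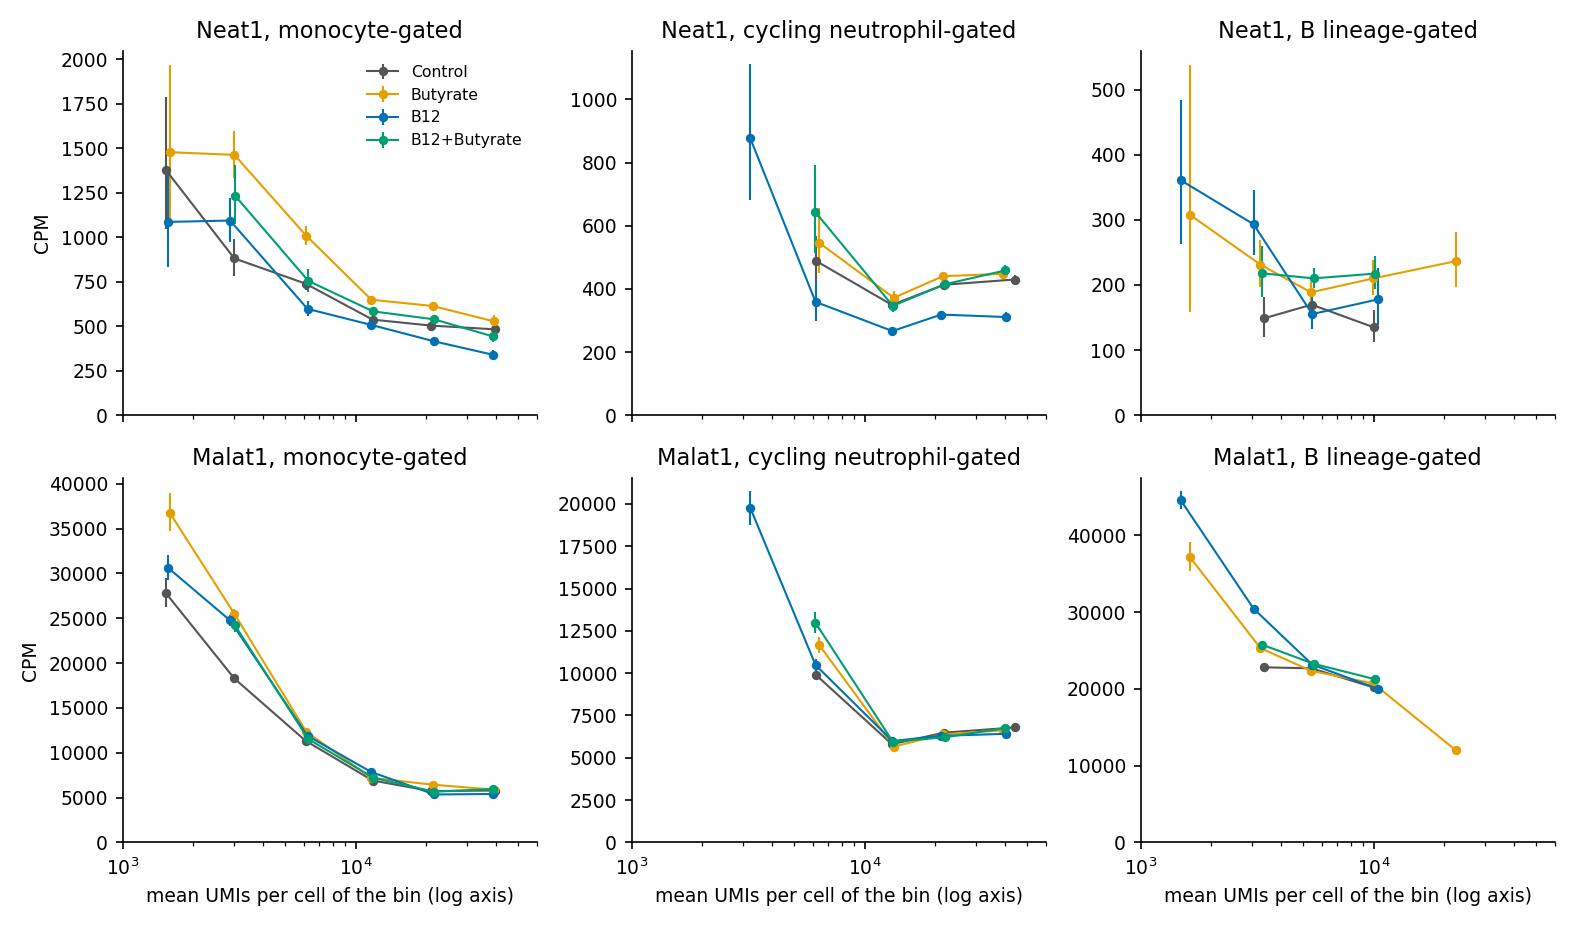
Level in CPM (linear, from 0) against mean UMIs per cell of each depth bin (log axis), for Neat1 (top) and Malat1 (bottom) in 3 gated classes and 4 libraries, with 95% counting intervals and bins of at least 20 cells. Monocyte-gated Control cells go from 27819 to 5787 CPM of Malat1, and the B12 line lies lowest for Neat1 in cycling neutrophil-gated cells above 4000 UMIs.

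The lower Neat1 of B12 against Control in cycling neutrophil-gated cells was present at each depth shown from 4000 UMIs up, as that plot of level by depth shows. This did not hold for B12+Butyrate against Butyrate, where the class as a whole was at -0.06. There Neat1 was 643 against 546 CPM at 4000 to 8000 UMIs and 458 against 448 at 32000 UMIs or more. With the same mix of depths in both libraries, the Neat1 ratio of GMP-gated cells in B12+Butyrate over Butyrate was -0.53, as against -0.55 without it. For B12 over Control, the contrast Neat1 was chosen on, it was -0.65 either way, and nothing is read from that.

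Barcodes above 10% mt- UMIs, left out of everything above, held larger shares of both RNAs but fewer UMIs of each. With the same limits on genes and UMIs, they held 19797 CPM of Malat1 in Control (613 barcodes), 23454 in Butyrate (782), 21462 in B12 (655) and 21398 in B12+Butyrate (331), against 7575 to 8559 CPM in kept cells. Neat1 stood at 769, 960, 731 and 774 CPM, against 381 to 485. Per barcode they held 2.72 to 3.82 Neat1 UMIs against 5.42 to 6.80 in kept cells, and 73.3 to 105 Malat1 UMIs against 108 to 117. They were also shallower, with median depths of 2533 to 3524 UMIs, and ribosomal protein genes, whose mRNAs are cytoplasmic, took 5.15 to 6.02% of their UMIs against 9.68 to 11.2% in kept cells. Neat1 per 100 Malat1 was lower in them, at 3.41 to 4.09 against 5.03 to 5.83. Their mix of classes differed too: 66.6 to 73.4% fell in the main classes, against 87.0 to 91.3% of kept cells. The part of that mix in the ratio was not tested.

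Below 10%, levels in monocyte-gated cells differed in steps. In Control, Malat1 was 6234 CPM at 1 to 2% mt- UMIs, 10059 at 4 to 6% and 14211 at 6 to 10%, and Neat1 509, 791 and 984 CPM, while median depth fell from 12859.5 to 7214.5 and 4103 UMIs. Depth and mt- share moved together there. Within a depth bin, cells above and below the median mt- share were compared without mt- UMIs in the denominator. Malat1 was then higher in the high-mt- cells in 12 of 12 comparisons of B lineage-gated cells (median log2 difference 0.13, from 0.04 to 0.37) in 6 of 8 of GMP-gated cells (median 0.25) and in 10 of 16 of monocyte-gated cells (median 0.07). It was higher in only 1 of 6 of T-gated cells (median -0.15) and 3 of 12 of noncycling granule neutrophil-gated cells (median -0.11), with 6 of 12 in cycling and 5 of 12 in mature neutrophil-gated cells. Neat1 was lower in 10 of 12 comparisons each of cycling neutrophil-gated (median -0.10), noncycling granule neutrophil-gated (-0.33) and mature neutrophil-gated cells (-0.17). It was higher in 10 of 16 of monocyte-gated (median 0.09), 7 of 12 of B lineage-gated (0.15), 4 of 8 of GMP-gated and 1 of 6 of T-gated cells (-0.17). The monocyte-gated medians pool depths at which Neat1 differed in sign. In the bin starting at 4000 UMIs its log2 differences were 0.99 in Control, 0.77 in Butyrate, 0.68 in B12 and 0.98 in B12+Butyrate. In the bin starting at 16000 UMIs they were -0.11, -0.10, -0.49 and -0.53. Malat1 was at 0.38 to 0.56 in the first of these bins and -0.13 to 0.06 in the second.

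**Figure D5:**
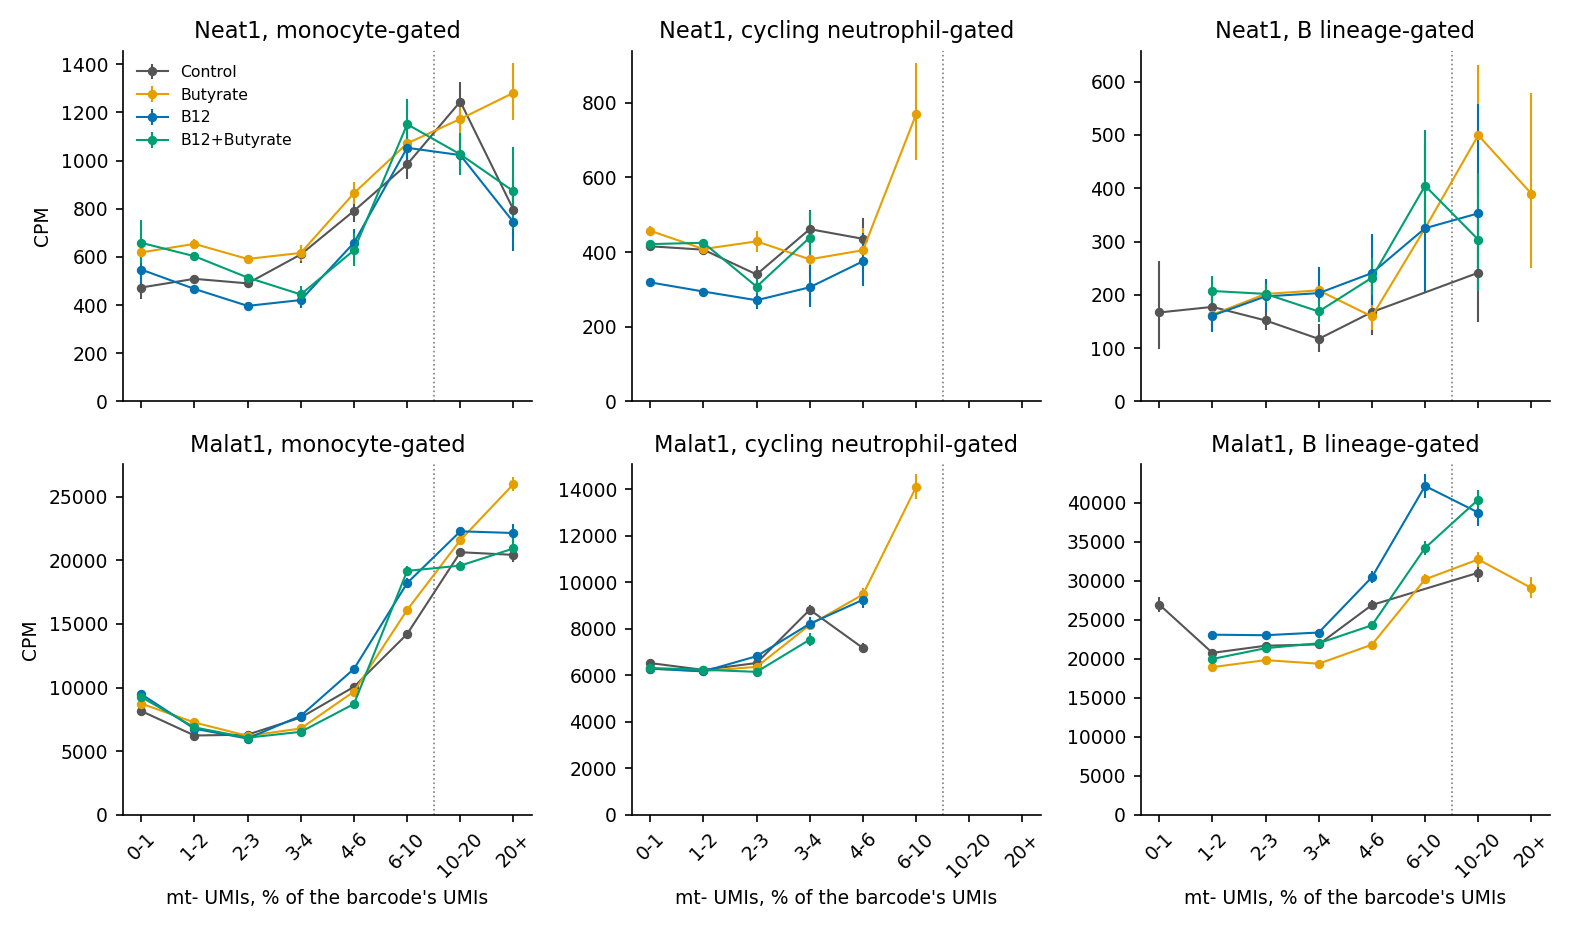
Level in CPM (linear, from 0) by bin of mt- share, for Neat1 (top) and Malat1 (bottom) in 3 gated classes and 4 libraries, with 95% counting intervals and bins of at least 20 barcodes; the dotted line marks the 10% limit. In monocyte-gated barcodes of Control, Malat1 goes from 6234 CPM at 1 to 2% to 20636 at 10 to 20%.

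Cells with mitosis and replication marker UMIs were compared with the rest of their lineage. In granule neutrophil-gated cells Neat1 was lower in the cycling cells of all 4 libraries, by log2 ratios of -0.38 in Control, -0.30 in Butyrate, -0.59 in B12 and -0.42 in B12+Butyrate, while Malat1 stayed within -0.10 to 0.03. In monocyte-gated cells both were lower in the cycling cells of each library, Malat1 at -0.62 to -0.31 and Neat1 at -0.44 to -0.06. In GMP-gated cells Malat1 was higher in cycling cells (0.15 to 0.29) and Neat1 had no common sign (-0.32 to 0.13). In the 22 to 31 cycling B lineage-gated cells of a library both were far lower, Malat1 by -1.71 to -0.98 and Neat1 by -1.47 to -0.96. Cycling cells were deeper in these classes, with medians of 18900.5 to 21052 UMIs against 11705 to 12718 in granule neutrophil-gated cells, and the part of depth in these differences was not tested.

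The genes tied to the 2 RNAs by location or function were compared in the same way. None of the 16 paraspeckle protein genes passed 1.5-fold in a main class in any contrast (83 to 85 gene-by-class values tested in each), and their class medians lay between -0.11 and 0.06, against -0.09 to 0.07 for all genes. In the 2 butyrate contrasts 25 of 84 and 24 of 83 of their values were above 0. The share of all genes above 0 was not taken, so no direction of the list is read from these counts. Class medians of all genes ran from -0.09 (GMP-gated) to 0.07 (mature neutrophil-gated) in Butyrate over Control. In B12+Butyrate over B12 they ran from -0.04 (GMP-gated) to 0.01 (T-gated). Among 15 speckle protein genes only Srsf7, a splicing factor, passed, in mature neutrophil-gated cells of B12 over Control (0.66; 209 CPM against 129), where 0.357% of all 2522 genes did. Among 9 other nuclear long RNAs only Mir155hg, the host of miR-155, passed, in T-gated cells of B12 over Control (-1.52; 11.5 CPM against 51.6), as 1 of the 6 members tested there, where 8.26% of all 4094 genes passed. Of the 6 neighbouring genes only Frmd8 in T-gated cells reached the 50 CPM needed, and it stayed within 1.5-fold. None of the 8 cytoplasmic or snoRNA-host RNAs passed.

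Immediate early and heat shock genes respond to cell handling as well as to signals. In B12 over Control 52 of 58 gene-by-class values of 9 such genes were higher and 12 passed 1.5-fold upward, against 2.0% of all gene-by-class values in either direction. In Butyrate over Control 55 of 57 were higher and 11 passed, against 1.13%. The other contrasts went down more often: in B12+Butyrate over B12, 16 of 57 were higher and 3 passed downward (background 1.53%), and in B12+Butyrate over Butyrate, 17 of 57 and 2 (background 0.852%). For the counts of higher values, the share of all genes above 0 was not taken.

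In GMP-gated cells the median log2 ratio of these 9 genes was 0.45 in Butyrate over Control (9 of 9 higher; Neat1 0.33) and -0.45 in B12+Butyrate over Butyrate (0 of 9 higher; Neat1 -0.55). In B12 over Control it was 0.12 (6 of 9 higher), where Neat1 was -0.65, and in B12+Butyrate over B12 -0.05 (4 of 8 tested were higher), where Neat1 was 0.43. Neat1 was chosen on the low B12 level that enters both of these Neat1 values, so nothing is read from setting them beside the medians. In monocyte-gated cells the median was 0.45 in Butyrate over Control and 0.36 in B12 over Control, beside 0.31 and -0.19 for Neat1. Hspa1b, a stress-induced chaperone, was 503 CPM in monocyte-gated Control cells, 787 in Butyrate and 948 in B12. Neat1 in the same cells was 538, 667 and 470 CPM. The part of handling stress in the Neat1 values was not tested.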

How the data were processed

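The authors deposited, for each library, a matrix of unnormalised UMI counts of genes by barcodes. Per the file headers it was written by Cell Ranger 7.1.0, and the submitters' processing notes name GRCm39. The sources used here do not say whether intronic reads were counted. The deposited counts were used as they stand, in 4 libraries of 3 pooled mice each. From them, cells were kept at 500 genes, 1000 UMIs and 10% mt- UMIs, and classed by marker UMIs per 10000 UMIs. The limits of the gates were set after seeing the data. Cells passing the gates of several lineages were left out in place of a doublet caller. Neat1, Malat1, the gene lists and the markers were chosen with earlier results of these data known. CPM is a gene's summed UMIs per 1000000 UMIs of the class. Contrasts are log2 ratios with a pseudocount of 10 CPM, past the limit at 1.5-fold, beside all genes with at least 50 CPM in either library. With 1 library a group there is no test and no p-value; intervals (95% Poisson, and for ratios from the counts) cover counting error only, and PCR and cell sampling are not in them. The genes named are Neat1, Malat1, the 5 most correlated with each (mt- genes and gate markers left out), and list members past the limit or among the 3 highest; the other genes past the limit in GMP-gated cells, those sharing the butyrate pattern, and members given as examples were named after their values were seen. Sequences come from GENCODE M21 transcripts (GRCm38), where a Python script searched the transcript strand. The tools were matplotlib 3.10.9, pandas 2.3.3, scipy 1.17.1 and numpy 2.4.6 under Python 3.11.15, and the contrast code was tested on simulated data. Alternatives were other cell filters, denominators, weights, depths, class mixes, pseudocounts and gates.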

Additional observations from a re-analysis of the deposited data

Results flagged for a closer look

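The 6 results here were picked out because a pair of contrasts of the same treatment, made from separate libraries, went in opposite directions; none of these differences was tested. For B12, Neat1 in noncycling granule neutrophil-gated cells was lower against Control and higher against Butyrate, a gap of 0.23 in log2 ratio (second minus first), and in mature neutrophil-gated cells it was higher and then lower, a gap of -0.22. Malat1 did the same as Neat1 in both classes, with gaps of 0.06 and -0.17. Malat1 in monocyte-gated cells was higher with butyrate without B12 and lower with it, a gap of -0.2, and higher with B12 without butyrate and lower with it, again -0.2. All of these were within 1.5-fold.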

How the results depend on the processing

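Of the 56 log2 ratios by class (both RNAs, 7 classes, 4 contrasts), 49 to 56 kept their sign under each of the 10 alternatives that apply to classes, and no value past 1.5-fold changed sign. The GMP-gated value of Neat1 in B12 over Control lay between -0.72 and -0.35. After thinning to 2000 UMIs, 4 class values were past 1.5-fold: Neat1 in GMP-gated cells of Butyrate over Control (0.71) and of B12+Butyrate over Butyrate (-0.74), and in T-gated cells of Butyrate over Control (0.71) and of B12 over Control (0.61). The all-cell log2 ratios moved by more than their counting interval as follows, with contrasts in the order B12 over Control, Butyrate over Control, B12+Butyrate over B12, B12+Butyrate over Butyrate. For Malat1 they were -0.12, 0.06, 0.08 and -0.09, and became -0.1, 0.1, 0.06 and -0.13 with the looser cell filter, -0.13, 0.03, 0.1 and -0.06 with the stricter, -0.04, 0.07, 0.1 and -0.01 without abundant genes in the denominator, -0.04, 0.09, -0.02 and -0.14 with cells weighing the same, -0.09, 0.07, 0.06 and -0.1 after thinning, -0.01, 0, -0.05 and -0.03 with the same mix of classes, and -0.12, 0.05, 0.07 and -0.1 without cells of very high UMIs. With the same mix of depths the first and last were -0.08 and -0.05, and without mt- UMIs the second and last were 0.07 and -0.1. For Neat1 (-0.23, 0.11, 0.29 and -0.05) the second and last were 0.14 and -0.08 with the looser filter and 0.18 and -0.1 with the same mix of classes, and the last was -0.03 with the stricter filter. Without abundant genes all but the second were -0.16, 0.31 and 0.03, with cells weighing the same -0.03, 0.12 and -0.02, and after thinning -0.03, 0.13 and -0.03. The cause of these moves was not tested. The share of all genes past 1.5-fold moved by over 1.5 times in 3 cases: from 2.0% to 1.18% in B12 over Control and from 1.13% to 0.62% in Butyrate over Control with no minimum level, and from 1.53% to 2.32% in B12+Butyrate over B12 with a minimum of 10 CPM. Without the 41 most abundant genes in the denominator, mature neutrophil-gated cells still came first and T-gated cells last for Neat1, and B lineage- and GMP-gated cells for Malat1. Between these ends the order changed for both RNAs. For Neat1, monocyte-gated cells went from place 2 to 4, noncycling granule neutrophil-gated cells from 3 to 2 and cycling neutrophil-gated cells from 5 to 3. Small numbers of cells limit the NK-gated (23 to 35 cells a library), basophil/mast-gated (19 to 41) and HSC/MPP-gated classes (31 to 86). These classes held 28 to 495 Neat1 UMIs a library.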
